A study of Mus musculus with 8 samples.

Results

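The platelet-derived growth factor (PDGF) genes are described here in the left ventricle of mice with and without an infusion of the pressor peptide angiotensin II (ANG II). They are the 7 rows, of 55679 in the deposited table, whose gene name is Pdgfa, Pdgfb, Pdgfc, Pdgfd, Pdgfra, Pdgfrb or Pdgfrl, and they were chosen by name and not by their values. The control group was 4 wild-type male C57BL/6J mice infused with saline for 7 days, and the ANG II group was 4 mice of the same strain and genotype infused for 7 days with 1500 ng/kg/min ANG II from an osmotic mini-pump under the skin. All hearts were flushed with saline before the left ventricle was removed, each library is a whole ventricle and so a mixture of cell types, and the study asked which genes and cells mark the hypertrophied ventricle. The labels name no batch, litter or day, and the p-values below measure the spread between these 8 libraries.

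PDGFs are secreted dimers that bind 2 receptor tyrosine kinases, PDGFRα and PDGFRβ, and so drive mesenchymal cells to divide, migrate and survive. PDGF-A and PDGF-B are active once cut by convertases inside the cell, whereas PDGF-C and PDGF-D carry a CUB domain that a protease has to remove outside it. PDGFRα binds the A, B and C chains and PDGFRβ the B and D chains. In the heart, Pdgfra is a usual marker of fibroblasts, Pdgfrb of pericytes and other mural cells, and Pdgfb is made by endothelium, where it recruits pericytes. Pdgfrl encodes a secreted protein that resembles the ligand-binding part of a PDGF receptor and has no kinase domain.

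Levels are given as FPKM, that is, fragments scaled by the length of the transcript and by the total of the library. All 7 genes were tested, and 4 rose with ANG II (Pdgfc, Pdgfra, Pdgfrb and Pdgfrl), whereas 0 fell. A gene was called when its log2 fold change was beyond 0.5 in either direction and its adjusted p-value by limma, over all 19364 genes tested, lay under 0.05. By this rule 2708 of all tested genes (14%) were called higher and 273 (1.41%) lower. The same 4 genes were those in which every ANG II library lay above every control library, as did 28.7% of all tested genes. The median log2 fold change of all tested genes was 0.15, so that a part of each increase below was shared with the table as a whole. The libraries held 14455761 to 16565042 fragments, and mitochondrially encoded genes took 26.3% to 26.9% of them in control and 19.2% to 21.8% in ANG II. With the libraries set to a common total without mitochondrially encoded genes and the 10 most abundant genes, the median of all tested genes was 0.05. The log2 fold change was then 0.53 for Pdgfra and 0.48 for Pdgfrb. In that setting 3 of the 7 genes were called, beside 1976 of 19356 tested genes called higher.

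The extraction note in the labels names cultured cells of another kind, so the tissue was checked on markers. Cardiomyocyte markers were abundant in every library, with a summed level over 10 genes of 48587 to 49432 FPKM in control and 36735 to 39620 with ANG II. Pericyte, endothelial and fibroblast markers were present in all 8 libraries, as were smooth muscle markers other than Tagln. Tagln was near 0, at 0.0325 ± 0.0376 FPKM in control and 0.233 ± 0.157 with ANG II (SD, n = 4 each). Acta2, of the same list, was at 108 ± 25.9 FPKM in control (SD, n = 4), and why Tagln was so low was not tested.

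In GRCm38 (GENCODE M21), Pdgfa lies on the minus strand of chromosome 5 (138976014 to 138997370) and Pdgfra on the plus strand of the same chromosome (75152292 to 75198215). Pdgfb lies on the minus strand of chromosome 15 (79995874 to 80014977), Pdgfc on the plus strand of chromosome 3 (81036416 to 81214040) and Pdgfd on the plus strand of chromosome 9 (6168584 to 6378850). Pdgfrl lies on the plus strand of chromosome 8 (40926212 to 40990785). None of the 7 genes overlaps another.

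The 250 bases before a RefSeq start of transcription are shown for the members that had such a window (GRCm38.p6, 4 of 7 matched). They are printed because 2 of these genes rose and the other 2 were not called. The windows of Pdgfa lie inside the GENCODE span given above, so the 2 annotations differ in where that gene starts. The windows are chr5:75152001-75152250 on the plus strand for Pdgfra, chr3:81036166-81036415 on the plus strand for Pdgfc, chr9:6168236-6168485 on the plus strand for Pdgfd, and chr5:138994945-138995194 on the minus strand for Pdgfa, which had a second window with 1 GC box that is not printed. Capitals mark matches, on either strand, to any of 4 motifs, and no match overlaps another. The motif of the GC box was spelled GGGCGG. That of the TATA box was TATAAA. The CCAAT box was searched as its name is written, and the site of AP-1 factors was searched as TGAGTCA.
Pdgfra: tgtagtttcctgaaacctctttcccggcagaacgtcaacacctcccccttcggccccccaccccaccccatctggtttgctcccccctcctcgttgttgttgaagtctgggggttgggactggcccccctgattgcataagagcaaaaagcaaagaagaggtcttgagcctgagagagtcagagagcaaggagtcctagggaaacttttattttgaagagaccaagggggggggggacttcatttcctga
Pdgfc: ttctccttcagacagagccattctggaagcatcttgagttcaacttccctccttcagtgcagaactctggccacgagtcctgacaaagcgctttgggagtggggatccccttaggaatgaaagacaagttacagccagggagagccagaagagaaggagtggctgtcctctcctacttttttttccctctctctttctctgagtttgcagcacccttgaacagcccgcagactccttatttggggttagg
Pdgfd: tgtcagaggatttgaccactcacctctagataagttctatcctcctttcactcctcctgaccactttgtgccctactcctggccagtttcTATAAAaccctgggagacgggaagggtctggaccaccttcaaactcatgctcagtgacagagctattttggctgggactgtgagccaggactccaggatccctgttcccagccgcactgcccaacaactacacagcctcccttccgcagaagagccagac
Pdgfa: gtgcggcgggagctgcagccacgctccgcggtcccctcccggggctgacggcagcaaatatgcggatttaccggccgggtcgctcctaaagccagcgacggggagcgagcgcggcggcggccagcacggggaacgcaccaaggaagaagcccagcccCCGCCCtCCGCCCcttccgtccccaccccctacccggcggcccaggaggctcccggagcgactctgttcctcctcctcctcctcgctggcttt
The windows of Pdgfra and Pdgfc hold none of these letters, that of Pdgfd holds 1 TATA box and that of Pdgfa holds 2 GC boxes. Of all 32851 windows of this length, 32.7% hold a GC box, 12.4% a TATA box, 33.8% a CCAAT box and 4.46% an AP-1 site. The GC content was 54.4% for Pdgfra, 50.8% for Pdgfc, 53.6% for Pdgfd and 72.4% for Pdgfa, against a median of 52.4% over all windows. These matches describe the sequence only, and binding was not measured.

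Among the ligands, Pdgfc, whose product acts through PDGFRα, was the one that rose. It was listed at 0.610, 0.930, 0.656 and 0.643 FPKM in controls 1 to 4 and at 1.68, 1.51, 2.65 and 1.93 FPKM in ANG II 1 to 4. All ANG II libraries were above all controls, and ANG II 3 was the highest. The mean went from 0.710 ± 0.148 to 1.94 ± 0.501 FPKM (SD, n = 4 each), 2.74-fold. The log2 fold change was 0.77 (SE 0.136, limma adjusted p = 0.00192), and it was 1.42 with voom on the recovered fragments, because adding 1 to the FPKM compresses low values. Pdgfc is a low gene, with 26 to 40 fragments in a control library and 71 to 118 in an ANG II library.

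Pdgfb encodes the chain that binds both receptors and was the most abundant PDGF gene in this table. It stood at 42.5, 32.5, 34.9 and 28.9 FPKM in controls 1 to 4 and at 54.2, 48.1, 52.9 and 35.8 FPKM in ANG II 1 to 4. ANG II 1 to 3 were above every control, but ANG II 4 lay below control 1, so the groups overlapped. The means were 34.7 ± 5.74 and 47.8 ± 8.39 FPKM (SD, n = 4 each), and the log2 fold change was 0.45 ± 0.144 (SE, adjusted p = 0.0379 by limma), under the fold change threshold. Its log2 fold change was 0.57 without ANG II 4 and 0.54 without control 1, past both thresholds (limma adjusted p = 0.00642 and 0.0171). Under median-of-ratios scaling it was 0.22 (limma adjusted p = 0.288), and the adjusted p was under 0.05 in 6 of 17 alternatives.

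Pdgfa, a ligand of PDGFRα, and Pdgfd, a ligand of PDGFRβ, were not called. Pdgfa stood at 16.0, 12.4, 13.2 and 11.4 FPKM in controls 1 to 4 and at 15.2, 14.1, 17.5 and 17.8 FPKM in ANG II 1 to 4. Control 1 lay within the range of the ANG II group, and ANG II 1 and 2 lay within that of the controls. The log2 fold change was 0.27 (SE 0.109, limma adjusted p = 0.0877), with means of 13.3 ± 1.96 and 16.1 ± 1.77 FPKM (SD, n = 4 each). Pdgfa shares its exons with a gene on the other strand: 26.1% of its exon length lies under 6330403L08Rik, and 21.3% of its 50-base words occur in that gene. The overlapping gene was listed at 3.26 ± 0.159 FPKM in control and 2.43 ± 0.0927 with ANG II (SD, n = 4 each), and without known strand their fragments cannot be told apart.

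Pdgfd stood at 11.3, 7.44, 10.7 and 8.99 FPKM in controls 1 to 4 and at 14.5, 9.83, 12.6 and 12.0 FPKM in ANG II 1 to 4. ANG II 2 lay below controls 1 and 3, so the groups overlapped. The means were 9.61 ± 1.74 and 12.2 ± 1.93 FPKM (SD, n = 4 each), and the log2 fold change was 0.32 (SE 0.14, limma adjusted p = 0.105).

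Both signalling receptors rose. Pdgfra, the fibroblast marker, stood at 20.5, 21.8, 17.0 and 18.0 FPKM in controls 1 to 4 and at 27.0, 28.0, 34.3 and 36.1 FPKM in ANG II 1 to 4. The groups did not overlap, and ANG II 3 and 4 were the highest. Its mean went from 19.3 ± 2.20 to 31.4 ± 4.52 FPKM (SD, n = 4 each), and the log2 fold change was 0.67 ± 0.110 (SE, adjusted p = 0.00133 by limma).

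Pdgfrb, the receptor of mural cells, lies on the plus strand of chromosome 18 (61045150 to 61085061 in GRCm38) and stood at 16.0, 17.8, 14.1 and 15.2 FPKM in controls 1 to 4 and at 23.4, 24.9, 24.8 and 25.7 FPKM in ANG II 1 to 4. The 4 ANG II libraries lay close together and above every control. The mean went from 15.8 ± 1.56 to 24.7 ± 0.950 FPKM (SD, n = 4 each), and the log2 fold change was 0.62 ± 0.0733 (SE, adjusted p = 0.000217 by limma). The adjusted p of both receptors stayed under 0.05 in all 17 alternatives. Under median-of-ratios scaling, however, the log2 fold change was 0.45 for Pdgfra and 0.40 for Pdgfrb, below the threshold of 0.5, and the common total without mitochondrially encoded and the 10 most abundant genes put Pdgfrb at 0.48.

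Pdgfrl, the secreted receptor-like gene, changed most of the 7. It stood at 1.41, 2.39, 1.00 and 1.81 FPKM in controls 1 to 4 and at 11.1, 11.6, 7.82 and 11.6 FPKM in ANG II 1 to 4. Even ANG II 3, the lowest of its group, was above the highest control. The mean went from 1.65 ± 0.589 to 10.5 ± 1.82 FPKM (SD, n = 4 each), 6.38-fold. Its log2 fold change, 2.13 ± 0.177 (SE, adjusted p = 3.11e-05 by limma), ranked 78 among the 19364 genes tested. It rested on 30 to 63 fragments in a control library and 214 to 336 in an ANG II library.

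**Figure D1:**
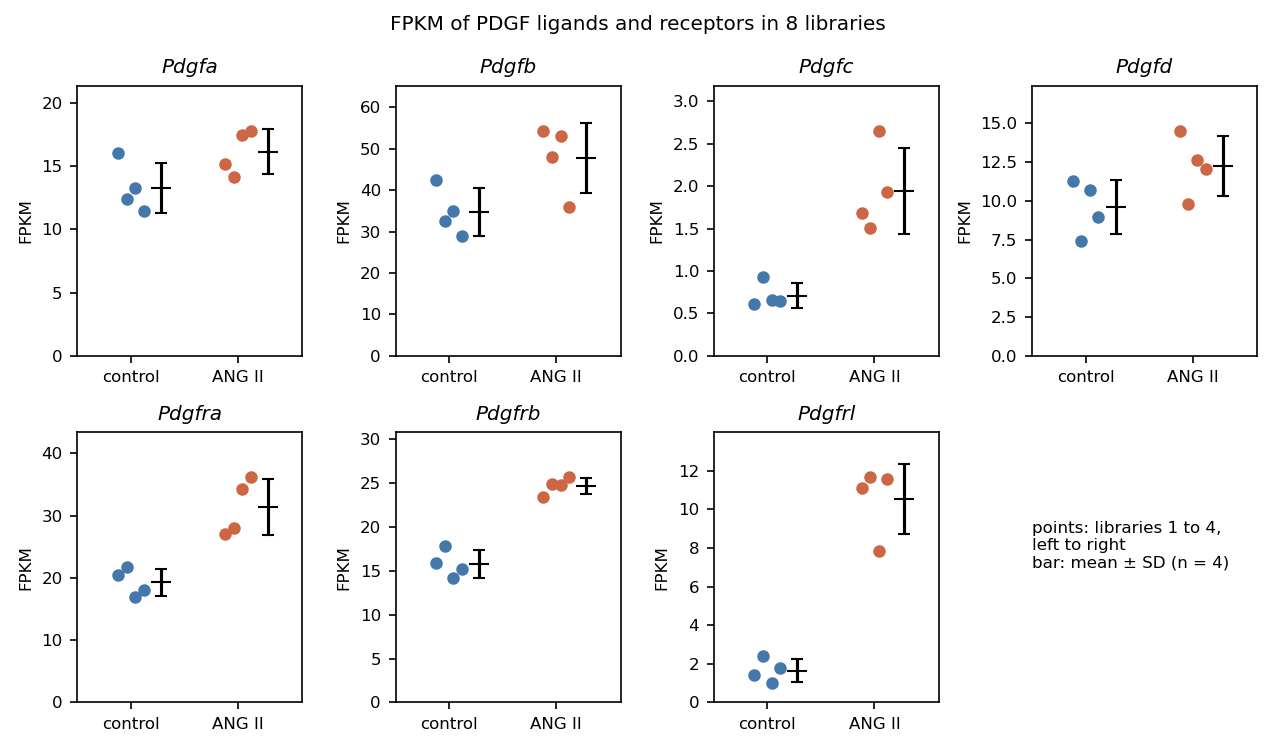
FPKM of the 7 genes in each library (points, libraries 1 to 4 from left to right), with the group mean ± SD (n = 4) beside them and each axis starting at 0. For Pdgfc, Pdgfra, Pdgfrb and Pdgfrl every ANG II library lies above every control, as for 28.7% of all tested genes. The groups overlap for Pdgfa, Pdgfb and Pdgfd, where libraries of each group lie in the range of the other.

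In a whole ventricle, more cells of a type and more RNA per cell cannot be told apart. All 7 genes had a positive log2 fold change in all 17 alternatives, the lowest being 0.02 for Pdgfa under quantile normalization. Less the median of all tested genes, the log2 fold changes were 1.99 for Pdgfrl, 0.63 for Pdgfc, 0.52 for Pdgfra, 0.47 for Pdgfrb, 0.30 for Pdgfb, 0.18 for Pdgfd and 0.12 for Pdgfa. That median depends on the genes kept and the scale: it was 0.19 with a filter at a mean of 1 FPKM and 0.23 with voom. Of the 7 genes, Pdgfc and Pdgfrl kept their call under quantile normalization and under median-of-ratios scaling, where the count of called members was 2. The calls fell in the whole table too: 1672 of 19338 tested genes were called higher under median-of-ratios scaling and 1417 of 19373 under quantile normalization.

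**Figure D2:**
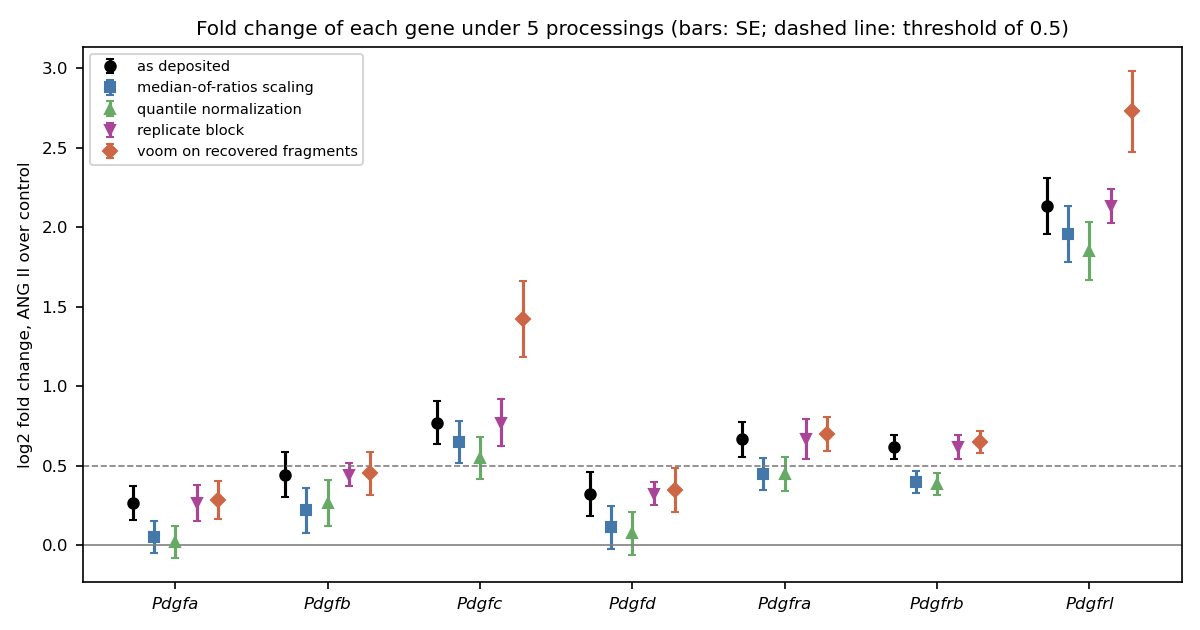
Log2 fold change of each gene, ANG II over control, under 5 processings of the same 8 libraries (symbols; bars are SE), with the fold change threshold of 0.5 as a dashed line. Pdgfra and Pdgfrb lie at 0.67 and 0.62 as deposited and at 0.45 and 0.40 under median-of-ratios scaling, while Pdgfc reaches 1.42 and Pdgfrl 2.73 with voom on recovered fragments.

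Per length, as deposited, Pdgfb was highest and Pdgfc lowest in both groups. In control, the order of the mean FPKM was Pdgfb, Pdgfra, Pdgfrb, Pdgfa, Pdgfd, Pdgfrl and Pdgfc, and it was the same in ANG II. Not every neighbour in that order was separate: in control the ranges of Pdgfra and Pdgfrb overlapped, as did those of Pdgfrb and Pdgfa. In ANG II the ranges of Pdgfb and Pdgfra, of Pdgfa and Pdgfd, and of Pdgfd and Pdgfrl overlapped.

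The order depended on the length given to each gene. The deposited values use the mean length of a gene's transcripts, which is 2745 bases for Pdgfra (9 transcripts of 442 to 6834 bases) and 5415 bases for Pdgfrb (2 transcripts). With the longest transcript, an alternative added after the data were seen, Pdgfra was at 7.76 ± 0.885 FPKM in control and 12.6 ± 1.82 with ANG II, against 15.8 ± 1.56 and 24.7 ± 0.949 FPKM for Pdgfrb (SD, n = 4 each). Pdgfra then fell from place 2 to place 4 in control and to place 3 in ANG II, and Pdgfrb took place 2 in both. Pdgfa moved from place 4 to 5 in control and 6 in ANG II, Pdgfd from 5 to 3 and 4, and Pdgfrl from 6 to 5 in ANG II. Pdgfb kept place 1, but in ANG II its 24.9 ± 4.38 FPKM (range 18.7 to 28.3) did not stand apart from Pdgfrb. Which transcripts the ventricle uses was not measured, so the order of the 2 receptors is not settled by these values, whereas the ratio of a gene between groups does not depend on its length.

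**Figure D3:**
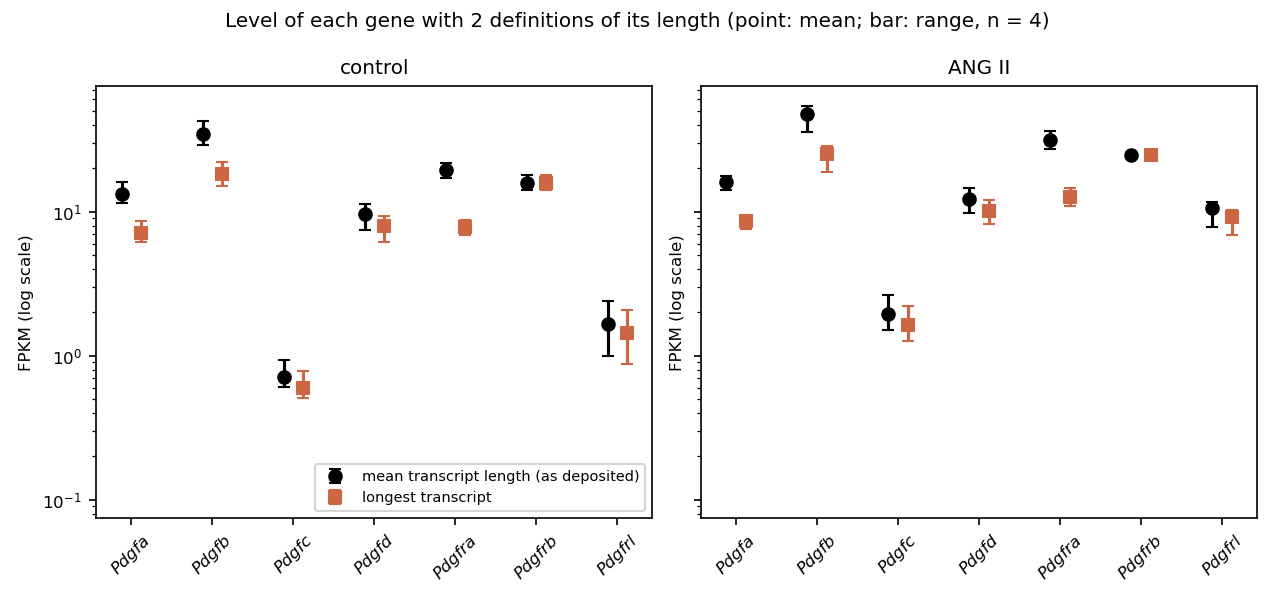
FPKM of each gene (log axis) in control and in ANG II, with the mean transcript length as deposited (circles) and with the longest transcript (squares); points are means and bars the range of 4 libraries. Pdgfra lies above Pdgfrb with the first length and below it with the second, in both groups.

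The 4 ligands summed to 58.3 ± 8.96 FPKM in control and 78.1 ± 9.05 with ANG II (SD, n = 4 each), with p = 0.0571 in a two-sided exact permutation test. Pdgfb made up 59.5 ± 1.48% of that sum in control and 60.9 ± 5.44% in ANG II, and Pdgfc 1.25 ± 0.371% and 2.49 ± 0.569% (SD, n = 4 each). The 2 signalling receptors summed to 35.1 ± 3.72 FPKM and 56.1 ± 5.29 FPKM (SD, n = 4 each), with p = 0.0286 in the same exact test, the smallest that 4 against 4 allows. Pdgfra was 55.0 ± 0.866% of the receptor sum in control and 55.8 ± 2.88% in ANG II. These sums and shares use the deposited lengths. With the longest transcript Pdgfra was the smaller part, at 7.76 FPKM in control and 12.6 in ANG II against 15.8 and 24.7 for Pdgfrb.

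Ratios within a library do not depend on how libraries are scaled, and 9 were compared with a two-sided exact permutation test. The ratio of Pdgfc to Pdgfa was 0.0382 to 0.0749 in control and 0.107 to 0.152 in ANG II, so the groups did not overlap. Its log2 difference was 1.16 (exact p = 0.0286, 0.0643 adjusted over the 9 ratios). The ratio of Pdgfd to Pdgfc, by contrast, went from 8.0 to 18.5 in control down to 4.76 to 8.64 in ANG II, with an overlap (log2 difference -1.09, exact p = 0.0571, adjusted p = 0.103). With 1 FPKM added to each value, as in the fit across genes, these differences were 0.51 and -0.45. The log2 difference was 0.05 for Pdgfra to Pdgfrb (exact p = 0.6), 0.17 for Pdgfb to Pdgfa (exact p = 0.4) and -0.25 for the ligand sum to the receptor sum (exact p = 0.2). These differences moved with single libraries: without ANG II 4 they were -0.0065, 0.35 and -0.14, and Pdgfb to Pdgfa was 0.08 without ANG II 1 and 0.10 without ANG II 2. None of the 9 passed 0.05 after adjustment, and the smallest exact p, 0.0286, became 0.0643.

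Pdgfrb was set beside 12 pericyte markers, of which 2 rose (Cspg4 and Notch3) and 1 fell (Abcc9, a potassium channel subunit). The sum of these markers was 563 to 596 FPKM in control and 589 to 661 with ANG II, and their median log2 fold change was 0.15, as was that of all tested genes. The count that rose, 2 of 12, is near the 14% of all tested genes, and it was 1 after median-of-ratios scaling and 0 after quantile normalization, where the median was -0.06 and -0.09. Cspg4, the NG2 proteoglycan, went from 4.85 ± 0.760 to 8.54 ± 0.908 FPKM (log2 fold change 0.71), Notch3, a mural cell receptor, from 18.8 ± 0.378 to 27.5 ± 1.78 FPKM (0.52), and Abcc9 from 74.8 ± 3.39 to 51.0 ± 4.16 FPKM (-0.55; SD, n = 4 each). The ratio of Pdgfrb to the sum was 0.0251 to 0.0300 in control and 0.0354 to 0.0423 in ANG II, a log2 difference of 0.51 (exact permutation p = 0.0286, adjusted p = 0.0643). It was 0.67 without Rgs5, the most abundant of the markers, and 0.49 with the mean of the log2 values, and the groups did not overlap in either. Thus Pdgfrb was higher in every ANG II library than in any control relative to this list as well. No ratio of Pdgfrb to the fibroblast markers was made.

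Smooth muscle cells, which also carry Pdgfrb, gave 2 of 8 markers higher, Cnn1 (calponin, log2 fold change 1.18) and Des (desmin, 0.92), and desmin is made by cardiomyocytes too. This count stands beside 14% of all tested genes, the median of the list was 0.09, and 1 marker was called lower after median-of-ratios scaling. Their sum was 1078 to 1269 FPKM in control and 1576 to 2479 with ANG II. Des carried that sum: without it the markers summed to 186 to 239 FPKM in control and 172 to 202 with ANG II, so the groups overlapped and the mean went from 205 ± 23.4 to 186 ± 15.0 FPKM (SD, n = 4 each). The part of smooth muscle in the Pdgfrb values was not tested.

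Fibroblast markers moved together with Pdgfra. Of 12 fibroblast markers 10 rose (9 after median-of-ratios scaling, where 2 fell), beside 14% of all tested genes, with a median log2 fold change of 0.89 against 0.15 for all tested genes, and all 10 activated fibroblast markers rose, with a median of 3.25. Among the first were Mmp2, a gelatinase (53.0 ± 7.52 to 204 ± 38.1 FPKM, log2 fold change 1.91), and Lum, the proteoglycan lumican (28.9 ± 6.05 to 98.9 ± 4.22 FPKM, 1.76). Among the second were Cthrc1, a secreted matrix protein (0.187 ± 0.0841 to 33.2 ± 7.18 FPKM, log2 fold change 4.83), and Postn, periostin (33.2 ± 8.28 to 667 ± 141 FPKM, 4.30; SD, n = 4 each). The sum of the 10 activated markers was 274 to 457 FPKM in control and 3114 to 3794 with ANG II. The part of fibroblast number in the Pdgfra, Pdgfrb and Pdgfrl values was not tested.

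The ratio of Pdgfra to the fibroblast sum turned with 1 gene of that sum. As a ratio to the sum of 12 markers, Pdgfra was 0.0123 to 0.0149 in control and 0.0152 to 0.0188 in ANG II, a log2 difference of 0.34 (exact permutation p = 0.0286, adjusted p = 0.0643). Gsn, gelsolin, was 58.6% to 59.4% of the sum in control and 28.5% to 36.5% in ANG II. Without Gsn the log2 difference was -0.36 (exact permutation p = 0.0286), and with the mean of the log2 values it was -0.20 (exact permutation p = 0.0857). The log2 fold change of Pdgfra, 0.67, lay below those of 10 of the 12 markers and above that of Gsn, -0.50.

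Pdgfrl, by contrast, was higher relative to the list of 12 fibroblast markers under each definition. The log2 difference of its ratio was 2.37 with the sum, 1.67 without Gsn and 1.27 with the mean of the log2 values (exact permutation p = 0.0286 in each), and the groups did not overlap. For the activated fibroblast markers, against which no ratio was tested, the sum went from a mean of 363 to 3455 FPKM, and the median log2 fold change was 3.25, above the 2.13 of Pdgfrl.

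Pdgfb was set beside 12 endothelial markers, whose sum was 569 to 611 FPKM in control and 651 to 748 with ANG II. Of these, 2 rose, the adhesion molecule Pecam1 (87.2 ± 1.23 to 126 ± 10.1 FPKM, log2 fold change 0.52) and von Willebrand factor, Vwf (24.9 ± 2.72 to 37.2 ± 5.46 FPKM, 0.56; SD, n = 4 each). That count is near the 14% of all tested genes, and it was 0 after median-of-ratios scaling and 0 after quantile normalization. The log2 difference of the ratio was 0.22 (exact permutation p = 0.171), and ANG II 4 lay within the control range while the other 3 were above every control. Platelets and macrophages also make PDGF chains: the summed level of the 8 platelet markers was 21.6 to 30.3 FPKM in control and 36.1 to 88.2 with ANG II (1 of 6 tested rose, near the 14% of all tested genes, namely Pf4, also made by some macrophages, and Gp1bb was at 0 in all libraries). ANG II 2 stood apart at 88.2 FPKM, and without it the highest ANG II sum was 52.7 FPKM. Pf4 carried the sum: without it the markers summed to 2.71 to 8.06 FPKM in control and to 6.22, 33.7, 4.82 and 5.14 FPKM in ANG II 1 to 4, of which 3 lay in the control range. The sum of 10 macrophage markers was 282 to 359 FPKM and 634 to 888 FPKM, and 9 of them rose, with a median log2 fold change of 1.36. Their part in the ligand values was not tested.

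**Figure D4:**
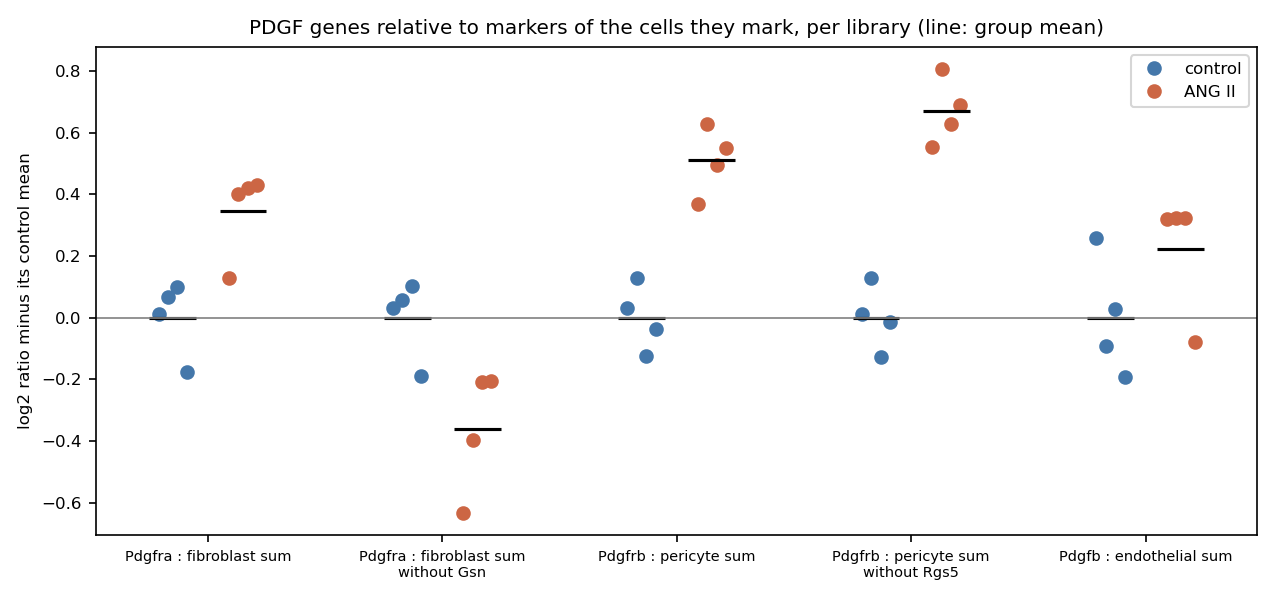
Log2 ratio of Pdgfra, Pdgfrb and Pdgfb to the summed FPKM of cell type markers, per library, less the mean of the controls (points; lines are group means). Pdgfrb is higher in ANG II with and without Rgs5 (0.51 and 0.67), whereas Pdgfra is higher by 0.34 with Gsn in the sum and stands at -0.36 without it, and Pdgfb overlaps between groups.

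Genes that release, activate or hold PDGF ligands were examined next. Of 11 such genes 6 rose, beside 14% of all tested genes, with a median log2 fold change of 0.58 against 0.15 for all tested genes. Sparc, a matrix protein that binds PDGF-B, went from 340 ± 51.3 to 1226 ± 150 FPKM (log2 fold change 1.85, SE 0.114, limma adjusted p = 6.31e-06). Lrp1, an endocytic receptor that associates with PDGFRβ, went from 69.7 ± 7.17 to 154 ± 13.1 FPKM (1.13, SE 0.0853, limma adjusted p = 1.84e-05). The proteases that free PDGF-C and PDGF-D were among those that rose. Plat, the tissue plasminogen activator that cuts PDGF-C, went from 12.5 ± 1.42 to 22.7 ± 2.08 FPKM (log2 fold change 0.81, SE 0.0928, limma adjusted p = 0.000178), and its groups were separate. Plau, the urokinase that cuts PDGF-D, went from 2.32 ± 0.746 to 4.71 ± 1.48 FPKM (0.77, SE 0.211, limma adjusted p = 0.0192; SD, n = 4 each), and its groups overlapped. The 5 genes not called ranged from -0.07 to 0.32, and the count of called genes was 4 after median-of-ratios scaling and 3 after quantile normalization, where the median was 0.46 and 0.35.

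Of 28 genes for proteins just downstream of the receptors 3 rose, a share no higher than the 14% of all tested genes, and their median log2 fold change was 0.23. They were Src, the membrane-bound kinase (1.98 ± 0.398 to 4.31 ± 0.224 FPKM, log2 fold change 0.84), Shc1, an adaptor (17.8 ± 1.13 to 32.6 ± 3.79 FPKM, 0.83), and Mapk3, which encodes ERK1 (48.3 ± 4.25 to 70.4 ± 1.45 FPKM, 0.54; SD, n = 4 each). The median was 0.00 after median-of-ratios scaling and -0.01 after quantile normalization, where 2 genes were called higher and 1 lower. Without ANG II 3 the count called higher was 5. Transcript levels do not measure the phosphorylation through which these proteins act.

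Among 16 negative regulators of receptor tyrosine kinases 3 rose, near the 14% of all tested genes, with a median log2 fold change of 0.30. After median-of-ratios scaling and after quantile normalization 2 were called, and the median was 0.12 and 0.06. The called genes encode tyrosine phosphatases, while Ptpn2, a further tyrosine phosphatase of the list named after its value was seen, was not called (log2 fold change 0.03). Ptprj went from 3.02 ± 0.204 to 6.26 ± 0.237 FPKM (log2 fold change 0.85), Ptpn1 from 16.3 ± 0.552 to 27.9 ± 2.87 FPKM (0.73) and Ptpn12 from 31.7 ± 1.96 to 48.8 ± 2.73 FPKM (0.61; SD, n = 4 each; the groups did not overlap in any of the 3).

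Of 19 genes that respond to growth factors 9 rose, beside 14% of all tested genes, with a median log2 fold change of 0.69 against 0.15 for all tested genes. The median was 0.48 (8 called) after median-of-ratios scaling, 0.45 (6 called) after quantile normalization and 1.17 with voom. Among them, Junb, a transcription factor of the AP-1 family, stood at 9.84 ± 3.00 and 30.7 ± 9.38 FPKM (log2 fold change 1.55), Ier3, an early response gene, at 16.4 ± 4.18 and 39.5 ± 4.38 FPKM (1.25), and Plaur, the urokinase receptor, at 2.43 ± 0.924 and 6.49 ± 0.682 FPKM (1.16; SD, n = 4 each). These genes respond to many stimuli besides PDGF, and which stimulus acted was not measured.

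The other receptors of the same class and their ligands did not move as a block. Of 7 genes 3 rose, beside 14% of all tested genes, with a median log2 fold change of 0.28, which was -0.04 under quantile normalization. Csf1r, the receptor for macrophage colony-stimulating factor, went from 26.0 ± 1.46 to 60.5 ± 6.69 FPKM (log2 fold change 1.18, SE 0.0827, limma adjusted p = 1.20e-05). Its ligand Il34 went from 2.28 ± 0.243 to 5.30 ± 0.911 FPKM (0.93, limma adjusted p = 0.000374), while its other ligand Csf1 was not called, at 30.2 ± 3.69 and 32.7 ± 1.34 FPKM (0.12). Flt3, a receptor of blood progenitors and dendritic cells, went from 0.0900 ± 0.0543 to 0.700 ± 0.182 FPKM (0.64, limma adjusted p = 0.00133), and its ligand Flt3l was not called (0.28). Kit and its ligand Kitl had log2 fold changes of 0.07 and -0.11 (SD, n = 4 each), and neither was called. Csf1r is made by macrophages, whose markers are given with the endothelial values. In these 5 lists limma on the deposited values called 0 genes lower, as did voom, and 1 gene lay below 0 at an unadjusted p under 0.05. It was the effector Gab1, named after its value was seen, with separate groups and a log2 fold change of -0.30 (limma adjusted p = 0.0213), short of the fold change threshold.

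**Figure D5:**
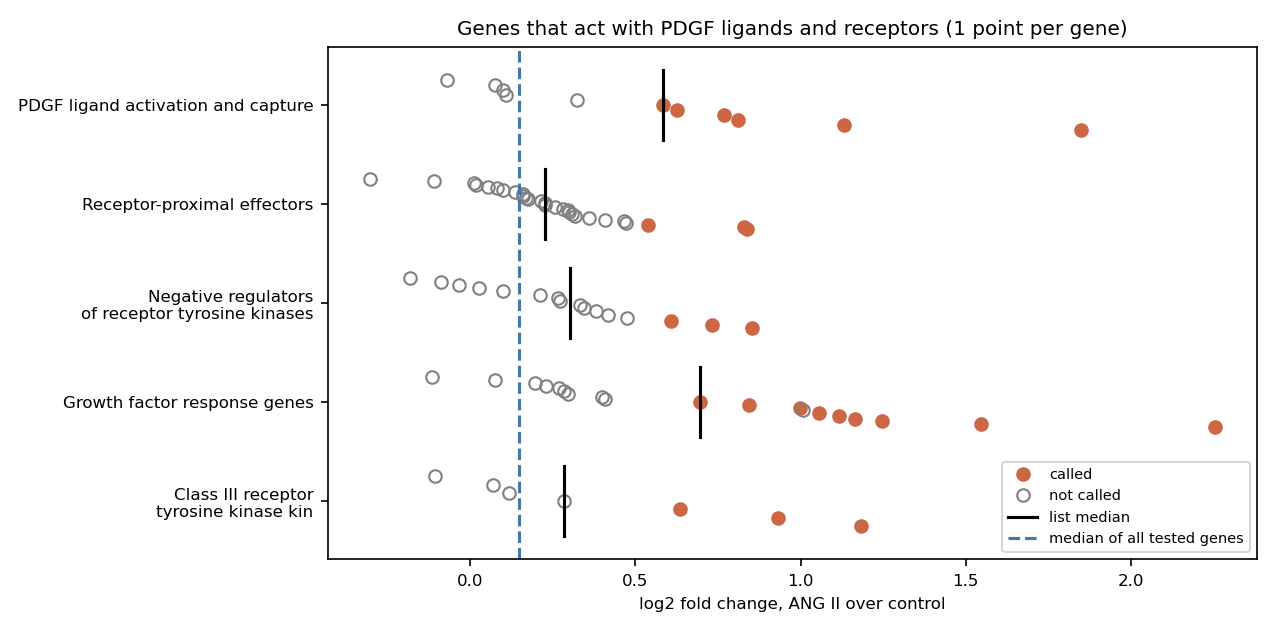
Log2 fold change, ANG II over control, of each gene in 5 lists of genes that act with PDGF ligands and receptors or are their kin (points; filled where called), with the list median (black line) and the median of all tested genes at 0.15 (dashed line). Called genes are 6 of 11 for activation and capture, 3 of 28 for effectors, 3 of 16 for negative regulators, 9 of 19 for growth factor response and 3 of 7 for the receptor kin, and all of them lie to the right. Of all tested genes, 14% were called higher and 1.41% lower.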

How the data were processed

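RNA-seq of 8 left ventricles was analysed, grouped by the treatment in the labels. The authors deposited FPKM values per gene and library, used here as they stood. The submitters' processing notes list Bowtie2, HISAT and RSEM, and the genome build, annotation and strand setting are not given in the sources used here. Low values were whole fragments with the mean transcript length of GENCODE M21 (GRCm38): 97.6% to 98.1% of values under 60 fragments in genes with several exons lay within 0.05 of a whole number, and fragments were read from this. Intervals over these fragments would cover counting error only.

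The fit was limma 3.58.1 (R 4.3.3) with a variance trend on log2(FPKM + 1), without covariates, over the 19364 genes whose mean reached 0.1 FPKM, with two-sided p-values adjusted by the Benjamini-Hochberg method. The thresholds and limma are those that the study names, while log base, pseudocount and filter were chosen here. Fold changes on this scale understate low genes. Ratios used the exact permutation test over all 70 allocations of 8 libraries (scipy 1.17.1, Python 3.11.15).

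The members, lists, tests and alternatives were chosen with earlier results of these data known. The text names all members, all receptor kin, up to 4 called genes of each other list with the largest change and up to 2 called lower, and the 2 genes most correlated with each member; a few that this rule would name are not reported here, while counts and medians of lists keep them. Furthermore Rgs5, Gsn, Tagln, Acta2, Gp1bb, Gab1, Ptpn2 and 6330403L08Rik were named after their values were seen. Alternatives changed the pseudocount, the filter, the scaling of libraries, the variance trend, the fold change threshold, the replicate number as a block, the libraries included, or used voom on recovered fragments.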

Additional observations from a re-analysis of the deposited data

Results flagged for a closer look

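In 32 groups of 4 libraries (7 levels and 9 ratios in 2 groups), 5 held a library whose gap to the nearest other was large for the range of its group by Dixon's test, which by chance flags about 1 in 20 groups. For the Pdgfc level in control, the gap was 0.858 of the range, with control 2 high. For Pdgfrl in ANG II it was 0.862, with ANG II 3 low. For the log2 ratio of Pdgfc to Pdgfa in ANG II it was 0.911, with ANG II 3 high, and for Pdgfra to the fibroblast sum in ANG II it was 0.901, with ANG II 1 low. For Pdgfb to the endothelial sum in ANG II it was 0.993, with ANG II 4 at -4.18 and the other 3 libraries between -3.79 and -3.78 on the log2 scale.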

How the results depend on the processing

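Over 17 alternatives, the log2 fold change ranged from 0.02 to 0.35 for Pdgfa, 0.22 to 0.57 for Pdgfb, 0.55 to 1.42 for Pdgfc, 0.08 to 0.42 for Pdgfd, 0.45 to 0.73 for Pdgfra, 0.39 to 0.68 for Pdgfrb and 1.85 to 2.73 for Pdgfrl. Pdgfra was at 0.45 (adjusted p = 0.00949) under median-of-ratios scaling and 0.45 (adjusted p = 0.0122) under quantile normalization, and Pdgfrb at 0.40, 0.39 and, with a common total less mitochondrial and the 10 top genes, 0.48. The count of called members was 2 under median-of-ratios scaling, 2 under quantile normalization and 1 at an absolute log2 fold change above 1. Beside the first of these counts, 1672 of 19338 tested genes were called higher, and beside the second 1417 of 19373. Leaving out 1 library in turn, Pdgfb ranged from 0.36 to 0.57, and it was called without control 1 (0.54) and without ANG II 4 (0.57).

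Among ratios, the log2 difference for Pdgfra to Pdgfrb ranged from -0.0065 (without ANG II 4) to 0.10 when 1 library was left out, that of Pdgfb to Pdgfa from 0.08 to 0.35 and that of ligands to receptors from -0.35 to -0.14. With 1 FPKM added, Pdgfc to Pdgfa was 0.51 and Pdgfd to Pdgfc -0.45. That of Pdgfra to the fibroblast sum was -0.20 with the mean of log2 values and -0.36 without Gsn, and that of Pdgfrl was 1.27 and 1.67. Pdgfrb to the pericyte sum was 0.67 without Rgs5. These marker-list alternatives, the smooth muscle sum without Des and the platelet range without ANG II 2, like the longest transcript, were chosen after the data were seen. The cause of these changes was not tested. In all, 334 of 358 results under an alternative were counted as kept, and 3 turned their direction. Fold changes and ratios were kept when they stayed on their side of the threshold or within the spread. A kept count of called genes could still change: 4 to 3 members, 6 to 4 activation and capture genes and 9 to 6 growth factor response genes were kept. Counts called lower that were 0 in both settings are also part of this tally.

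Over all tested genes, same-numbered libraries deviated with correlations of -0.032 to 0.062, so no general pairing by number was seen. Such a correlation cannot exclude a pairing that acts on single genes. With a replicate block the adjusted p was 0.00433 for Pdgfb and 0.0167 for Pdgfd, no member's call changed and the count stayed at 4. Depth limits Pdgfc most, at 26 to 118 fragments a library.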

Other observations

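The genes whose library-to-library pattern was most like each member were ranked by Pearson's r of log2(FPKM + 1) over the 8 libraries after the mean of each group was taken away, among 11298 genes (11299 for Pdgfc, which lies below 1 FPKM in control). The highest were Kifc2 (0.993) and Mphosph10 (0.978) for Pdgfa, Tmem67 (0.984) and Egfl7 (0.979) for Pdgfb, Ndufs4 (0.982) and Hint3 (0.981) for Pdgfc, and Rap2c (0.989) and Rexo5 (0.984) for Pdgfd. They were Sap30l (0.978) and Smpdl3a (0.976) for Pdgfra, Eif2ak3 (0.975) and Gtf3c1 (0.973) for Pdgfrb, and Mfap4 (0.989) for Pdgfrl. Egfl7 is an endothelial gene and Mfap4 a microfibril protein of the matrix, whose mean was 15.4 FPKM in control and 121 with ANG II. As the highest of so many genes over so few libraries, these values are a description.

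Among the members themselves, r on the same scale was 0.77 for Pdgfra and Pdgfrb, 0.68 for Pdgfra and Pdgfc, and -0.65 for Pdgfd and Pdgfrb. The libraries that share these values are the same 8, and no test was made.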
